A study of Mus musculus with 6 samples.

Results

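Cornified envelope and desmosome genes encode the protein shell, the crosslinking enzymes and the cell junctions of stratified squamous epithelium. They were followed on 6 arrays of mouse aorta, a vessel wall of endothelium, smooth muscle and adventitia that has no such epithelium of its own. The 42 genes form a list drawn up from the known biology of that epithelium, and each was read from the brightest probe set that the platform annotation ties to that 1 symbol. All 42 were measured, out of 22180 genes with such a probe set. It was drawn up with the signals of these same 6 arrays known, on which genes of this kind stood apart on a single wild-type array. The levels and differences below are therefore a description, and no test of them is offered as support.

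Aorta came from mice deficient in endothelial nitric oxide synthase (eNOS), the endothelial source of nitric oxide, and from age-matched wild-type mice. Total RNA of 3 eNOS-deficient samples (numbered 11, 15 and 19 in their titles) and 3 wild-type samples (2, 3 and 5) was hybridised to 1 Affymetrix array each. The labels used here name no allele, strain, sex or age in numbers, and do not say whether the samples of a genotype are separate animals, so the p-values cover no more than the array-to-array spread seen here. Signals are log2 values, in which a step of 1 is a doubling. Values are given throughout in the array order eNOS-deficient 11, 15, 19 and wild type 2, 3, 5.

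In squamous epithelium, keratinocytes leave a basal layer that is held together by desmosomes, junctions in which cadherins (desmogleins and desmocollins) bind neighbouring cells and plaque proteins (desmoplakin, plakoglobin, plakophilins) tie them to keratin filaments. As the cells rise, envelope precursors such as involucrin, loricrin and the small proline-rich proteins are laid under the membrane and are joined by transglutaminases into an insoluble shell. Many of the precursor genes lie side by side in the epidermal differentiation complex. Desmosomes are also found outside squamous epithelium, in simple epithelia and in heart muscle.

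The upstream sequences of 6 members of the differentiation programme are shown, each of which holds both kinds of letters marked below. Of these genes, 4 carried some of the largest signals on a single array, while Ivl and Crnn did not. Each run is the 250 bases before the RefSeq transcription start (GRCm38.p6), 5′ to 3′ on the gene's strand. Capitals mark matches to TGANTCA, in which N is any base, and to TATAAA, the TATA box. TGANTCA is a loose form of the letters bound by AP-1, a factor family known for its part in keratinocyte differentiation. Its middle letter is T in Rptn, A in Crnn, and C or G in the other windows shown. The counts below take any middle letter.
Krtdap: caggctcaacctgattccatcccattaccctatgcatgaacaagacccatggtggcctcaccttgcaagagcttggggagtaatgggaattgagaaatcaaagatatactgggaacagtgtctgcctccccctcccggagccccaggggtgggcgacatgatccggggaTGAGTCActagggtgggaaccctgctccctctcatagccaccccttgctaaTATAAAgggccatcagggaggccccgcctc
Rptn: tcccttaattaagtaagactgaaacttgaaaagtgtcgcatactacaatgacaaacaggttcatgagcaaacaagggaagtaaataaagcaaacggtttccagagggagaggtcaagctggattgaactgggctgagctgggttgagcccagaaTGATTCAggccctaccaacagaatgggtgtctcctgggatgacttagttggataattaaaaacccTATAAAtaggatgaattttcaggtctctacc
Lor: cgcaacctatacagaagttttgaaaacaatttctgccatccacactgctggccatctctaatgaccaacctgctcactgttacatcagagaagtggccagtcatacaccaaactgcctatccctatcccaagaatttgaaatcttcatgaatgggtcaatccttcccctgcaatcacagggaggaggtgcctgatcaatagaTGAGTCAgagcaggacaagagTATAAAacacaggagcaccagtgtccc
Sprr1a: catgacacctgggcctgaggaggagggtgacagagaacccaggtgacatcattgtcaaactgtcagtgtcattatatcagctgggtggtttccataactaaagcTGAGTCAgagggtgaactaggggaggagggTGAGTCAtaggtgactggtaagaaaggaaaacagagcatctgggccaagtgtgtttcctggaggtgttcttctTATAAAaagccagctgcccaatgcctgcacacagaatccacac
Ivl: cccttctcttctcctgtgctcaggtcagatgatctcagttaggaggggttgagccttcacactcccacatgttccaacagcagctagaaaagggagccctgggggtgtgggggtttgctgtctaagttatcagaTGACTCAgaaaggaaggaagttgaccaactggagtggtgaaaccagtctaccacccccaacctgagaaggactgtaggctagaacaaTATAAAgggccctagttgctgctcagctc
Crnn: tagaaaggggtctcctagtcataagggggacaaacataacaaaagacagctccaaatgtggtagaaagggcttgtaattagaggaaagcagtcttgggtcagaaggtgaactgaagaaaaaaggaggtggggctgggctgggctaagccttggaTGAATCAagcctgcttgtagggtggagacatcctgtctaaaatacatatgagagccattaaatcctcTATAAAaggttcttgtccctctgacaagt
They lie at chr7:30787655-30787904 (+ strand) for Krtdap, chr3:93393449-93393698 (+ strand) for Rptn, chr3:92083143-92083392 (- strand) for Lor, chr3:92485882-92486131 (- strand) for Sprr1a, chr3:92573736-92573985 (- strand) for Ivl and chr3:93144539-93144788 (+ strand) for Crnn.

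RefSeq promoters matched 23 of the 42 members. On either strand, TGANTCA occurred in 12 of the 23 (52.2%), against 7.82% of 27025 genes with a window of the same length. All 12 were envelope precursors or other differentiation genes, and none was a desmosomal gene. Matched promoters were not counted by role. In 49 other genes of cornification with a matched promoter, TGANTCA occurred in 10. Among members TGANTCA was found at large and small signals alike. It was present in 8 of 16 genes whose level on wild type 5 was at least 1 log2 above the mean of wild type 2 and 3, and in 4 of 7 genes below that step. TATAAA occurred in 11 of 23 members (47.8%, against 14.3% of all genes) and in 13 of the 49 other genes of cornification. GGGTGTG, letters recognised by Krüppel-like factors, occurred in 4 (17.4%, against 7.9%), and AACCNGTT, recognised by grainyhead-like factors, in Rptn and Sfn (8.7%, against 2%). All 6 windows shown hold both TGANTCA and TATAAA, so they do not stand for all 23. Tgm3, Cnfn and Sprr3, at 10.83, 11.06 and 8.66 on wild type 5, have a matched promoter without TGANTCA. In the 6 windows shown no TGANTCA match overlapped a TATAAA match, and overlap among the other motifs was not counted. A match describes letters only and is not a site. Several of these genes are neighbours of 1 family, so their promoters are not independent.

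The members were low on 5 arrays and high on 1. Their mean over all 42 was 5.30, 5.35 and 5.37 on the eNOS-deficient arrays, 5.85 on wild type 2, 5.46 on wild type 3 and 8.11 on wild type 5. Of the 42, 40 were highest on wild type 5, which was the highest array for 20.9% of all 22180 genes. At least 1 log2 lay between wild type 5 and the mean of wild type 2 and 3 for 32 of 42 members (3.8% of all genes), and for 31 of the 39 members kept by the filter on dim genes described below (3.07% of genes kept). It was at least 2 log2 for 24 members (188 of all 22180 genes), and the lowest step was that of Pkp2 at -0.77. The largest steps were those of Krtdap (39.8-fold on the linear scale), Rptn (36.1-fold) and Tgm3 (27.3-fold). Just inside the step of 1 was Evpl at 1.09, and just outside it were Epcam at 0.85 and Pkp3 at 0.82. A single array has no replicate, so this step has no error of its own.

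**Figure D1:**
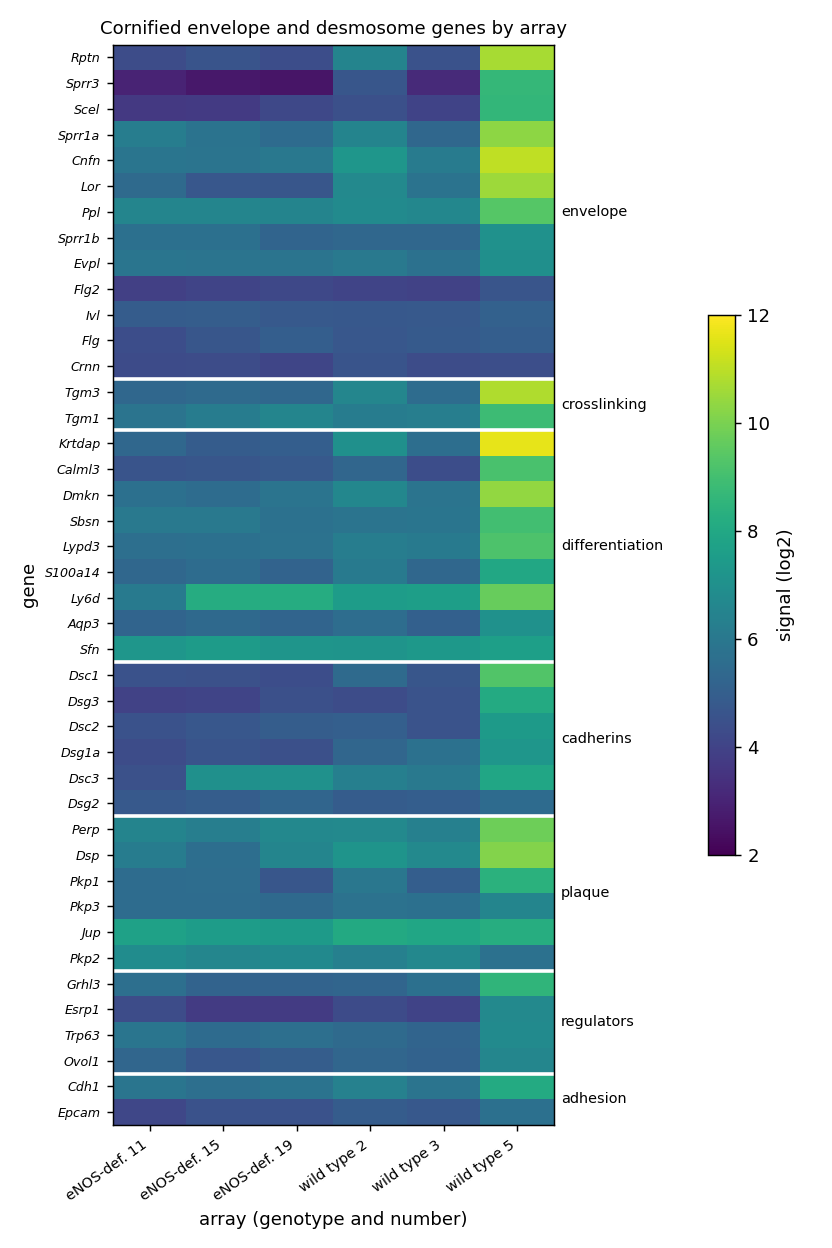
Log2 signal (colour) of the 42 genes (rows, grouped by role and ordered by their step on wild type 5) on the 6 arrays (columns). The wild type 5 column is brightest in 40 of 42 rows, and Ivl, Flg, Flg2, Crnn, Sfn, Dsg2, Jup and Pkp2 show little or no step there.

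Wild type 2 came next. It was the second highest array for 25 of the 40 members that peaked on wild type 5, an order shown by 6.05% of all genes. It exceeded every eNOS-deficient array for 27 of 42 members (29.7% of all genes). Wild type 3 stood close to the eNOS-deficient arrays, with a member mean 0.12 above theirs, where wild type 2 stood 0.50 and wild type 5 2.76 above. The median difference between wild type 2 and 3 was 0.26 (-0.013 over all genes), and 31 members were higher on wild type 2 (47.5% of all genes). Gene by gene, the excess of wild type 2 over eNOS-deficient 15 ran with the excess of wild type 5 over eNOS-deficient 19 (Pearson's r = 0.81, Spearman's rho = 0.78 across 42 genes, with no array in common, against r = 0.28 across all 18007 genes tested). With wild type 3 less eNOS-deficient 11 in place of the first, r was -0.032 and rho 0.12. That changes the baseline as well as the wild-type array, and Ly6d and Dsc3 were low on eNOS-deficient 11, as given below. Across 54 other genes of cornification the same comparisons gave r = 0.56 and r = 0.13. These values depend on the eNOS-deficient array taken as baseline, and other baselines were not tried. Wild type 2 and 3 both lay above every eNOS-deficient array for 14 members (16.6% of all genes). Genes are not replicates, and these relations are between single arrays.

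**Figure D2:**
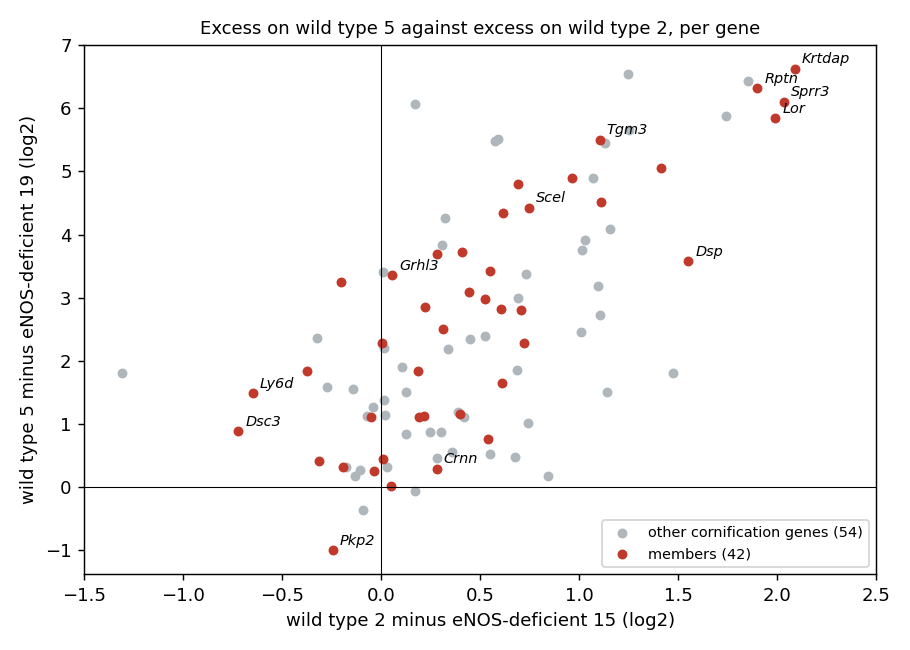
Each point is a gene, placed by its log2 excess on wild type 2 over eNOS-deficient 15 (horizontal) and on wild type 5 over eNOS-deficient 19 (vertical), for the 42 members (red) and 54 other cornification genes (grey). Krtdap, Rptn, Sprr3 and Lor lie at the upper right, and Dsc3 and Ly6d lie to the left of 0.

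Between genotypes, the wild-type arrays were too unlike one another to set a level for the group. Over the 39 members that passed the filter on dim genes (a mean of at least 4.38 log2), the mean was 5.47 ± 0.043 (SD, n = 3) in eNOS-deficient and 6.60 ± 1.46 (SD, n = 3) in wild-type aorta. The difference was -1.13 log2 with all 6 arrays, -0.30 without wild type 5 (36 members then passing the filter), and -0.094 without wild type 2 and wild type 5, a choice made after seeing the data. Leaving out wild type 3 moved it the other way, to -1.64. In limma, 0 of 39 members passed an adjusted p of 0.05, where 0.0278% of 18007 genes did (0.0167% lower in eNOS-deficient aorta). The members' adjusted p ran from 0.292 to 0.990, and at an unadjusted p of 0.05 there were 4 lower and 0 higher in eNOS-deficient aorta (3.72% and 7.86% of all genes tested). Limma with an intensity trend and robust variance, and limma with array weights, also gave 0. All 3 wild-type arrays lay above all 3 eNOS-deficient arrays for 14 members (7.89% of all genes) and the groups overlapped for the other 28. These counts come from the arrays that chose the list, so nothing is read from them.

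Outside the filter were Sprr3, Flg2 and Crnn, with means of 4.12, 4.13 and 4.34 over the 6 arrays, and just inside it was Esrp1 at 4.46. Scel, Dsg3 and Esrp1 passed only through their level on wild type 5. Signals this dim lie near the array background, where log2 differences understate true ratios.

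**Figure D3:**
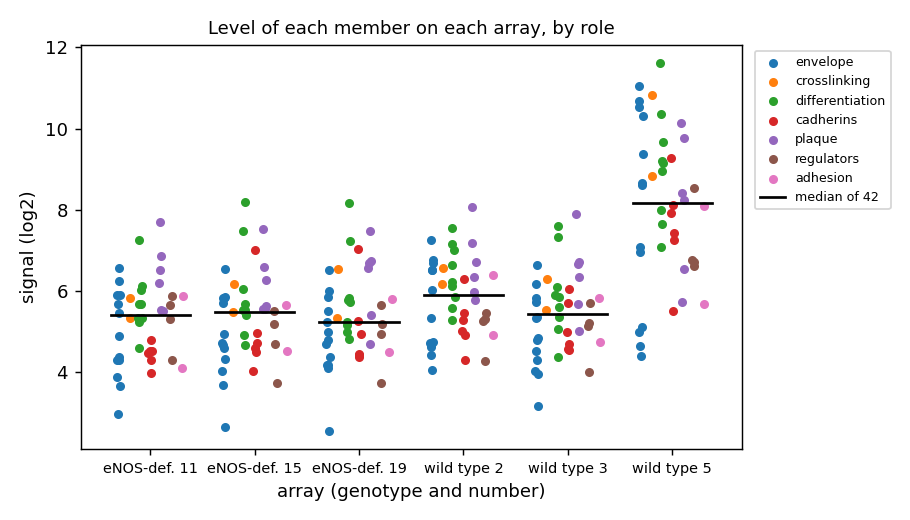
Log2 signal of each member (points, coloured by role) on each array, with the median of the 42 (black bar). The median is 5.23 to 5.49 on the eNOS-deficient arrays, 5.91, 5.45 and 8.18 on wild type 2, 3 and 5, and only on wild type 5 do points lie above 10, for 8 genes.

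Of 13 envelope precursors, 9 had a step of at least 1 log2 on wild type 5, and their steps ran from -0.07 to 5.17. Rptn, which encodes repetin, an S100-fused precursor, measured 4.31, 4.61 and 4.37 in eNOS-deficient and 6.51, 4.51 and 10.68 in wild-type aorta. Only wild type 2 and 5 lay clear of the eNOS-deficient range, and the groups overlapped through wild type 3. Lor encodes loricrin, a glycine-rich main component of the epidermal envelope, and measured 5.45, 4.71 and 4.69 in eNOS-deficient and 6.70, 5.83 and 10.53 in wild-type aorta. The groups did not overlap, although eNOS-deficient 11 and wild type 3 were only a short way apart. Sprr3, a small proline-rich precursor, measured 2.98, 2.65 and 2.55 in eNOS-deficient and 4.68, 3.18 and 8.66 in wild-type aorta, again without overlap.

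Sprr1a, of the same family, measured 6.25, 5.83 and 5.51 in eNOS-deficient and 6.52, 5.36 and 10.31 in wild-type aorta, with wild type 3 below every eNOS-deficient array. The related gene Sprr1b had a step of 1.74 on wild type 5, against 4.37 for Sprr1a, and probes of such relatives may share signal. Cnfn (cornifelin) and Scel (sciellin), both envelope proteins, had steps of 4.34 and 4.38. Among the plakins that link the envelope to desmosomes, Ppl (periplakin) stepped by 2.66 and Evpl (envoplakin) by 1.09.

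Ivl, which encodes involucrin, an early envelope precursor, had the narrowest range of its role and measured 4.89, 4.94 and 4.80 in eNOS-deficient and 4.74, 4.79 and 5.11 in wild-type aorta. All 6 arrays lay within 0.37 log2, and the genotypes overlapped. Flg and Flg2, encoding filaggrin and its relative that bundle keratin in the outer epidermis, had steps of 0.22 and 0.63. Crnn (cornulin), an S100-fused protein of squamous mucosa, measured 4.29, 4.33 and 4.10 in eNOS-deficient and 4.61, 4.31 and 4.40 in wild-type aorta and was the only member highest on wild type 2. A flat signal at this level cannot tell an absent transcript from a probe set that responds poorly.

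Both transglutaminases, which form the crosslinks of the envelope, were highest on wild type 5. Tgm3 measured 5.34, 5.47 and 5.33 in eNOS-deficient and 6.58, 5.53 and 10.83 in wild-type aorta. Its genotypes did not overlap, with wild type 2 well above and wild type 3 barely above the eNOS-deficient arrays. Tgm1, the membrane-bound enzyme, measured 5.83, 6.18 and 6.55 in eNOS-deficient and 6.18, 6.29 and 8.84 in wild-type aorta. For Tgm1 wild type 2 and 3 lay inside the eNOS-deficient range and wild type 5 alone stood out.

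Of the 9 other differentiation genes, 8 had a step of at least 1 log2. Krtdap, encoding a small secreted keratinocyte peptide, reached the highest level of any member and measured 5.35, 4.91 and 4.99 in eNOS-deficient and 7.0, 5.60 and 11.61 in wild-type aorta. The genotypes were separate, wild type 2 lying between the low arrays and wild type 5. Dmkn (dermokine), also secreted by differentiating keratinocytes, measured 5.68, 5.53 and 5.84 in eNOS-deficient and 6.64, 5.85 and 10.36 in wild-type aorta. There too the groups did not overlap, although wild type 3 exceeded eNOS-deficient 19 by a hair. Calml3, an epithelial calmodulin-like protein, measured 4.59, 4.67 and 4.81 in eNOS-deficient and 5.29, 4.37 and 9.14 in wild-type aorta, and wild type 3 was the lowest of the 6.

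Sbsn (suprabasin) stepped by 3.09 on wild type 5, S100a14 (an S100 protein of epithelia) by 2.25 and Aqp3 (the aquaglyceroporin of basal keratinocytes) by 1.76. Lypd3, a surface protein of suprabasal cells, stepped by 3.03 on its brighter probe set and by -0.13 on its dimmer one, so its 2 probe sets disagree. Sfn, encoding the 14-3-3 sigma protein, was bright on every array and measured 7.25, 7.48 and 7.22 in eNOS-deficient and 7.17, 7.34 and 7.64 in wild-type aorta. Its whole range was 0.47 log2, and the genotypes overlapped.

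Ly6d and Dsc3 were low on eNOS-deficient 11 alone, to an extent that no other member shared, and were picked after their values were seen. Ly6d, a surface protein of keratinocytes that early B lineage cells also carry, measured 6.11, 8.19 and 8.18 in eNOS-deficient and 7.54, 7.61 and 9.67 in wild-type aorta. Dsc3, a desmocollin, measured 4.47, 7.02 and 7.04 in eNOS-deficient and 6.30, 6.04 and 7.93 in wild-type aorta. In both, eNOS-deficient 11 was 2.07 to 2.58 log2 below eNOS-deficient 15 and 19, and those 2 arrays exceeded wild type 2 and 3. A list of 10 lymphocyte genes averaged 6.04, 8.32 and 8.65 in eNOS-deficient and 7.73, 8.22 and 7.82 in wild-type aorta. That list is thus low on the same array, and its part in the 2 genes' levels was not tested.

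Among the desmosomal cadherins, which lie together on chromosome 18 in the RefSeq gene table, all 6 members were highest on wild type 5. Dsc1, the desmocollin of the upper layers, measured 4.53, 4.49 and 4.38 in eNOS-deficient and 5.45, 4.69 and 9.27 in wild-type aorta, without overlap of the genotypes. Dsg3, the desmoglein of basal layers and of mucosa, measured 3.99, 4.03 and 4.43 in eNOS-deficient and 4.31, 4.55 and 8.12 in wild-type aorta. Wild type 2 lay inside the eNOS-deficient range for Dsg3, and wild type 5 alone lay far above it. Dsg1a and Dsc2 had steps of 1.76 and 2.64. Dsg1a was also above every eNOS-deficient array on wild type 3 (5.71) and wild type 2 (5.29).

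Dsg2, the desmoglein of simple epithelia and heart, had the narrowest range of the cadherins and measured 4.79, 4.96 and 5.26 in eNOS-deficient and 4.92, 4.98 and 5.50 in wild-type aorta. Its second probe set stepped by 0.38 in place of 0.55. Wild type 5 was the highest array but exceeded eNOS-deficient 19 by less than the spread of the eNOS-deficient arrays. Of the 3 other measured genes in the stretch, Dsg1b stepped by 2.11, Dsg4 by 0.59 and Dsg1c by 0.059, all with means under the dim filter.

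Of 6 plaque genes, 3 had a step of at least 1 log2 on wild type 5. Dsp, encoding desmoplakin, which anchors keratin filaments, measured 6.20, 5.63 and 6.56 in eNOS-deficient and 7.18, 6.71 and 10.14 in wild-type aorta. The groups did not overlap, and wild type 2 was second. Perp, a membrane-spanning desmosomal protein that p63 controls, measured 6.53, 6.27 and 6.68 in eNOS-deficient and 6.71, 6.36 and 9.78 in wild-type aorta, with wild type 3 inside the eNOS-deficient range. Pkp1, the plakophilin of stratified epithelia, measured 5.53, 5.56 and 4.69 in eNOS-deficient and 5.97, 5.01 and 8.40 in wild-type aorta, and only wild type 5 lay far from the rest.

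Jup, encoding plakoglobin, which also serves the adherens junctions of endothelium, measured 7.71, 7.52 and 7.47 in eNOS-deficient and 8.06, 7.91 and 8.23 in wild-type aorta. All wild-type arrays lay above all eNOS-deficient arrays, yet the whole range was 0.77 log2. Pkp3 stepped by 0.82. Pkp2, the plakophilin of heart and simple epithelia, ran the other way and measured 6.86, 6.60 and 6.73 in eNOS-deficient and 6.36, 6.66 and 5.74 in wild-type aorta. It was lowest on wild type 5 and the only member highest on an eNOS-deficient array.

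All 4 regulators of the epithelial programme were highest on wild type 5. Grhl3, a grainyhead-like factor needed for the skin barrier, measured 5.67, 5.20 and 5.18 in eNOS-deficient and 5.25, 5.71 and 8.54 in wild-type aorta, with wild type 2 and 3 near the eNOS-deficient arrays. Esrp1, an epithelial splicing regulator, measured 4.31, 3.75 and 3.74 in eNOS-deficient and 4.27, 4.01 and 6.71 in wild-type aorta. Ovol1, a zinc finger factor of differentiating keratinocytes, measured 5.30, 4.70 and 4.95 in eNOS-deficient and 5.31, 5.15 and 6.61 in wild-type aorta. In all 3 genes wild type 5 stood alone. Trp63, encoding p63, which maintains basal keratinocytes, had the narrowest range of these genes and measured 5.87, 5.51 and 5.67 in eNOS-deficient and 5.45, 5.21 and 6.78 in wild-type aorta. Its genotypes overlapped, with wild type 2 and 3 below all eNOS-deficient arrays.

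The epithelial adhesion genes were both highest on wild type 5. Cdh1, encoding E-cadherin, measured 5.88, 5.67 and 5.81 in eNOS-deficient and 6.39, 5.83 and 8.10 in wild-type aorta, with wild type 3 inside the eNOS-deficient range. A second, dimmer probe set of Cdh1 gave a step of 0.33 in place of 1.99. Epcam, a surface protein of simple and glandular epithelia, measured 4.11, 4.51 and 4.51 in eNOS-deficient and 4.91, 4.74 and 5.67 in wild-type aorta. Its genotypes did not overlap, but its step of 0.85 was among the smaller ones.

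The 10 members from S100a14 to Rptn belong to 1 stretch of chromosome 3 in the RefSeq gene table, the epidermal differentiation complex, in which 58 genes were measured. The step on wild type 5 varied sharply between neighbours. It was at least 1 log2 for 6 of the 10 members and 22 of the 48 other genes, and no gene was 1 log2 lower there. Crnn, Flg2 and Flg lie in a row with steps of -0.07, 0.63 and 0.22, next to Hrnr (hornerin, 2.91) and then Rptn (5.17). Among the late cornified envelope genes, Lce3a, Lce3c, Lce3e and Lce3f stepped by 4.67, 4.26, 5.12 and 4.93, and Lce3b between them by 0.45. Lce1e had the largest step of the stretch, at 5.61. Genes of this family are close copies, so their probes may read one another.

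**Figure D4:**
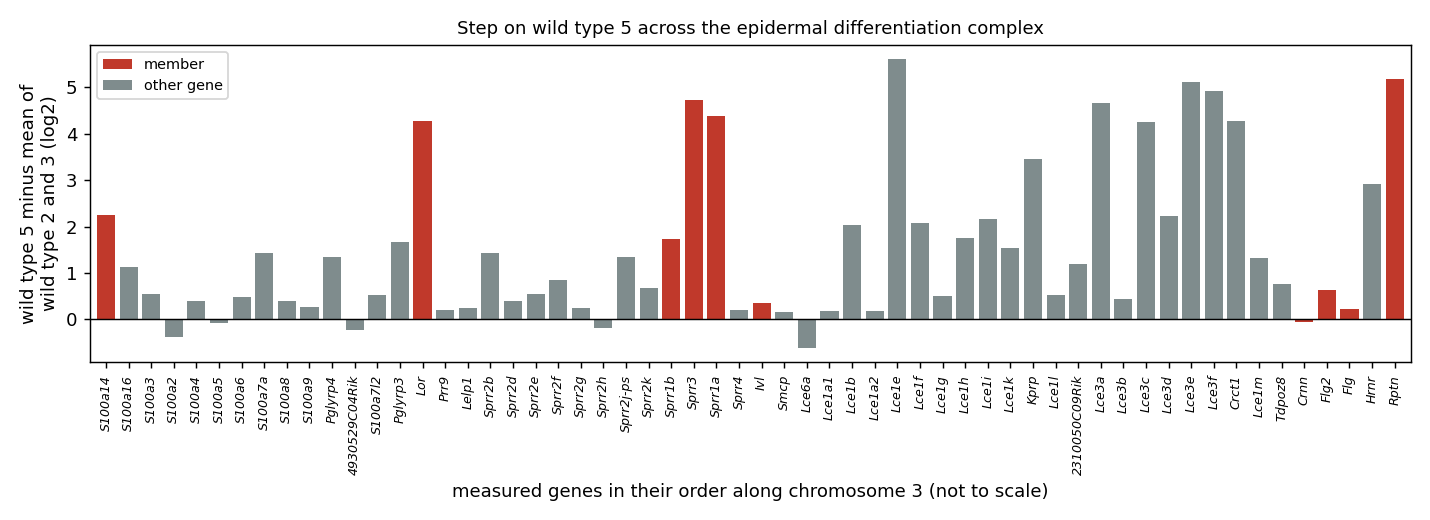
Log2 signal on wild type 5 minus the mean of wild type 2 and 3 (bars) for 58 measured genes in their order along chromosome 3, members in red. Bars of 4 to 6 log2 (Lor, Sprr3, Sprr1a, Lce1e, Lce3e, Rptn) stand beside neighbours near 0 (Ivl, Crnn, Flg).

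Other genes of cornification gave a like picture. Of 54 measured on a list of 60, 34 had a step of at least 1 log2 on wild type 5 and 49 were highest there (median step 1.61, against -0.03 over all genes). Asprv1, the protease that processes filaggrin, measured 4.75, 5.79 and 6.30 in eNOS-deficient and 7.53, 5.77 and 12.18 in wild-type aorta. Serpinb3a, a squamous protease inhibitor, stepped by 5.12. Among enzymes of barrier lipids, Alox12b stepped by 4.74, Cers3 by 3.38, Aloxe3 by 2.63, Sdr9c7 by 1.86 and Pnpla1 by 1.69, and the lipid transporter Abca12 by 3.71. Of the 33 that passed the dim filter and were tested, 0 passed limma's adjusted p, and 5 were lower and 0 higher in eNOS-deficient aorta at an unadjusted p of 0.05 (3.72% and 7.86% of all genes tested).

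Keratins are the filaments that desmosomes anchor. On wild type 5, 3 of 7 keratins of squamous mucosa had a step of at least 1 log2. Krt4 and Krt13, the pair of suprabasal squamous mucosa, measured 5.16, 4.76 and 4.41 in eNOS-deficient and 9.64, 6.18 and 13.33 in wild-type aorta and 5.25, 4.97 and 4.64 in eNOS-deficient and 7.90, 5.64 and 12.18 in wild-type aorta respectively. Both ordered the wild-type arrays 5, then 2, then 3, and in neither did the genotypes overlap. Krt78 stepped by 2.16, and Krt6b, Krt6a, Krt16 and Krt17 by 0.87, 0.43, 0.15 and -0.26. Basal Krt15 and Krt14 stepped by 3.54 and 2.09 on wild type 5. Of 5 epidermal suprabasal keratins, Krt80 stepped by 1.27 and the other 4, Krt1, Krt10, Krt2 and Krt77, by -0.41 to 0.085. Of 5 simple keratins, Krt23 stepped by 2.35 and the other 4, Krt19, Krt8, Krt18 and Krt7, by -0.18 to 0.21. Of 19 other epithelial regulators measured, 9 had a step of at least 1 log2 (median 0.77), led by Klf5 at 2.72, Ehf at 2.0 and Zfp750 at 1.88. Gata3, Ovol2, Klf4 and Elf3 had the smallest steps, from -0.17 to 0.04. Of 28 other junction genes 8 stepped by at least 1 log2, led by Rab25, a trafficking protein of epithelia, at 4.21.

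The genes most like the members were sought among all others by a Pearson's r of at least 0.95 with the member mean over the 6 arrays, which 174 named genes reached, and the 15 with the widest range were kept. Of the 15, 8 were already on the lists above, among them Krt13, Asprv1 and Lce3e. The others were Mt4, a metallothionein of squamous epithelium, which measured 4.51, 3.81 and 4.17 in eNOS-deficient and 6.75, 5.17 and 11.27 in wild-type aorta, Defb4, a beta-defensin, with a step of 4.17, Klk14, a kallikrein-related protease (4.64), Serpinb12 (4.44), Ly6g6c (4.73), Crct1, of the chromosome 3 complex (4.28), and Fads2b (4.71). With 1 array so far from the rest, r mostly reports that array.

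One of the 15 was a muscle gene. Myh8, the perinatal myosin heavy chain of skeletal muscle, measured 4.75, 4.40 and 4.05 in eNOS-deficient and 6.47, 4.99 and 10.22 in wild-type aorta. It ordered the arrays like Krt4, unlike the list of 18 skeletal muscle genes it belongs to, which averaged 10.53, 9.26 and 9.15 in eNOS-deficient and 9.21, 8.50 and 10.43 in wild-type aorta. That list was high on eNOS-deficient 11 too, where the members averaged 5.30. On wild type 5 it lay 1.58 above the mean of wild type 2 and 3, with 16 of 18 genes at least 1 log2 higher. The part of skeletal muscle in the members' levels was not tested.

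Markers of the labelled tissue were present on every array. Acta2 and Myh11 of smooth muscle measured 12.55, 12.59 and 12.80 in eNOS-deficient and 12.39, 12.30 and 12.41 in wild-type aorta and 10.18, 10.09 and 10.46 in eNOS-deficient and 10.88, 10.69 and 9.98 in wild-type aorta respectively, and Cdh5 of endothelium 10.06, 10.29 and 10.40 in eNOS-deficient and 11.02, 10.66 and 9.75 in wild-type aorta. On wild type 5, 6 of 16 endothelial genes were at least 1 log2 below the mean of wild type 2 and 3, as were 171 of all 22180 genes. The endothelial list step was -0.84, and smooth muscle genes differed by -0.13 as a list. In bulk tissue, fewer cells of a type and less RNA per cell cannot be told apart.

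Of 15 airway and lung genes, 9 were above every eNOS-deficient array on wild type 2 (29.7% of all genes). A step of at least 1 log2 on wild type 5 was seen for 2 (3.8% of all genes). Bpifa1 and Scgb1a1, secretory genes of the airway, measured 3.89, 3.82 and 3.60 in eNOS-deficient and 9.41, 5.70 and 3.86 in wild-type aorta and 3.38, 3.34 and 3.49 in eNOS-deficient and 8.99, 5.24 and 4.37 in wild-type aorta respectively. Wild type 2 and, less so, wild type 3 were high, while wild type 5 was at 3.86 and 4.37. The 2 genes with a step on wild type 5 were Cyp2f2, a cytochrome of airway club cells, which was highest there, and Sftpc, a lung surfactant gene, with steps of 2.15 and 1.53. The whole list of 15 averaged 6.26 on wild type 2 and 4.76 to 5.40 on the other arrays, and its upper end on eNOS-deficient 19 came with Sftpc at 9.92. The part of airway genes in the members' level on wild type 2 was not tested.

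The remaining lists showed no step of this size. On wild type 5 relative to wild type 2 and 3, mesothelial genes differed by 0.22 as a list, thymic epithelial genes by 0.12, salivary and thyroid genes by 0.235, fibroblast genes by 0.35, brown adipocyte genes by -0.19, macrophage genes by 0.35, lymphocyte genes by -0.16, cardiac genes by 0.42 and Y-linked genes by -0.12. Between genotypes, 3 Y-linked genes averaged 7.76, 4.71 and 8.0 in eNOS-deficient and 3.63, 3.54 and 3.47 in wild-type aorta, so the groups also differ in these genes. The labels name no sex. In the Y-linked genes eNOS-deficient 15 lay well below eNOS-deficient 11 and 19, though above the wild-type arrays. The wild-type arrays were alike in them, where their member means were 5.85, 5.46 and 8.11. The part of sex in the genotype differences given above was not tested, and the labels do not allow it to be set apart from genotype. Over all 20 lists, 0 of 230 genes tested passed limma's adjusted p of 0.05 (0.0278% of all genes tested). At an unadjusted p of 0.05 there were 17 lower and 29 higher in eNOS-deficient aorta (3.72% and 7.86% of all genes tested).

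**Figure D5:**
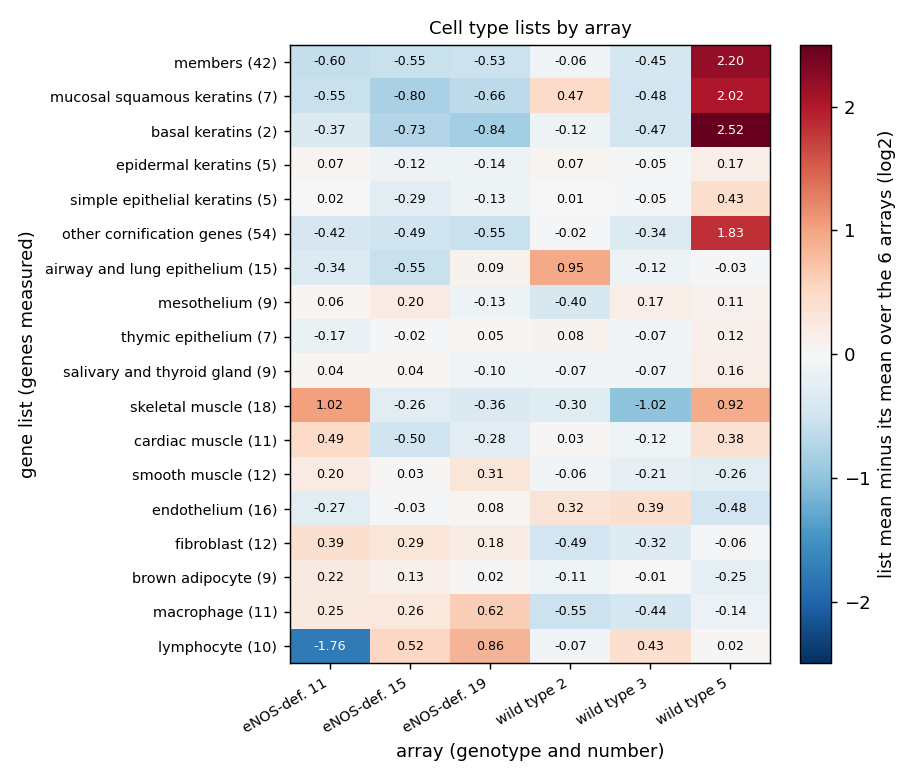
Mean log2 signal of each list on each array, less the list's own mean over the 6 arrays (colour and printed value), with the number of genes measured. Members, basal and mucosal squamous keratins and other cornification genes are high on wild type 5, airway genes on wild type 2, skeletal muscle genes on eNOS-deficient 11 and wild type 5, and lymphocyte genes low on eNOS-deficient 11.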

How the data were processed

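Total RNA (300 ng per sample, per the labels' protocols) from 6 aorta samples was labelled with biotin and hybridised to 1 Affymetrix array each. The deposited table holds log2 values for 41345 probe sets, made by the authors with RMA in Affymetrix Expression Console 1.3.1 per the submitters' processing notes. They were used as deposited. Of the probe sets, 23521 list 1 gene symbol, 1814 several and 16010 none. The brightest probe set stood for each of 22180 genes, and 18007 genes whose mean reached 4.38 log2, the 25th percentile over probe sets, were tested with limma 3.58.1 in R 4.3.3 (lmFit, eBayes, Benjamini-Hochberg over all of them). Array medians were 5.55 to 5.68, and the small number of arrays limits the precision. The scripts were tested on simulated data.

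The members and lists were chosen with earlier results of these data known. Members printed in full were the 3 of each role with the widest range over the 6 arrays, the narrowest, and both members of a role of 2; Sprr1a, Ly6d, Pkp2 and Crnn were added after their values were seen. From other lists, genes with the widest range or brightest mean were named, and others such as the flat regulators and keratins, the Lce3 genes, barrier lipid genes, Cyp2f2 and Sftpc after their values were seen. The files name no genome build; gene order, chromosomes and promoters come from RefSeq on GRCm38.p6. Alternatives were other dim filters, the mean of probe sets, centring, quantile normalization, other limma settings and leaving out arrays. Python 3.11.15 and matplotlib 3.10.9 drew the plots.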

Additional observations from a re-analysis of the deposited data

How the results depend on the processing

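With each array left out in turn, the member mean of eNOS-deficient less wild-type aorta ran from -1.64 to -0.30, the excess of wild type 5 over wild type 2 and 3 from 2.32 to 2.69, the number of members at least 1 log2 higher there from 30 to 32, the spread of the eNOS-deficient arrays from 0.028 to 0.085, and the number past limma stayed at 0. With all 6 arrays these were -1.13, 2.51, 31 of 39, 0.085 and 0. Leaving out both wild type 2 and wild type 5 gave a difference of -0.094, since the arrays with the high values are gone. A fold of at least 1.5 without an adjusted p took 28 members in place of 0. That count includes wild type 5, and the share of all genes at this fold was not computed, so nothing is read from it. Centring the arrays on their medians brought the eNOS-deficient spread to 0.041. Other dim filters, the mean of probe sets, repeated quantile normalization, the median over members and other limma settings kept each direction. So did a step of 2 log2 (23 members, against 151 of 18007 genes kept). All stayed within 1 SD of replicates or 1.5 times the count. For the genotype difference that SD pools both groups and is wide mainly through wild type 5. It also took in the -0.30 found without that array, so it is a loose bound. The excess of wild type 5 cannot be computed without that array. No paired analysis was possible because the groups share no replicate numbers. Members near the dim filter, such as Sprr3 on the eNOS-deficient arrays, are limited by background.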
